A study of Mus musculus with 48 samples.

Results

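The 10 genes described here carry out or switch on the steps from acetyl units to unsaturated fatty acids: Srebf1, Acly, Acss2, Acaca, Fasn, Elovl6, Scd1, Scd2, Fads1 and Fads2. They were chosen by name from a table of normalized RNA abundance with 27281 genes, of which 13409 had a symbol and a mean of at least 1 and were tested, these 10 among them. RNA was measured in mouse striatal progenitor cells (STHdh lines, strain C57BL/6) in 48 samples, which fall into 16 conditions of 3. The cells carried either the huntingtin alleles labelled wild type (Q7) or the mutant knock-in alleles, homozygous (Q111), and each genotype is 1 conditionally immortalized line, so the genotype and the line cannot be told apart. Cells were seeded at 33 °C and then kept for 24 hours in medium without serum, in all groups, with vehicle (DMSO) or a compound. Poly(A) RNA was read with a directional kit as single 50-base reads.

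Vehicle alone was given to Q7 cells and to Q111 cells, and all 14 compounds, which the study calls protective, were given to Q111 cells. The study's own group A held cyproheptadine at 10 µM, loxapine at 10 µM and pizotifen at 5 µM, and its group B held meclizine at 10 µM and diacylglycerol kinase inhibitor II (DKI) at 10 µM. The other compounds were 4-deoxypyridoxine at 4 mM, sodium butyrate at 1 mM, cysteamine at 250 µM, selisistat at 10 µM, trichostatin A at 10 nM, fingolimod phosphate at 250 nM, nortriptyline at 1 nM, and nicotinamide and haloperidol at 0.5 nM each. Doses therefore differ between most compounds. The samples were labelled with a collection day and a collection time, each numbered 1 to 3, and what the time numbers stand for is not stated. The Q111 vehicle shared all 3 combinations of day and time with the Q7 vehicle and selisistat, 2 with cyproheptadine and DKI, and 0 with the other 11 compounds. Each of those 11, like the vehicle, had 1 sample on each day and 1 at each time, so that only the combinations of day and time were unmatched. Cyproheptadine and DKI had 1 sample at each time, 2 on day 3 and 0 on day 1. In both, replicate 1 is labelled day 3, while every other replicate 1 is labelled day 1. This label is in doubt and was used as given.

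The values are the authors' normalized abundances on a logarithmic scale, whose base is read here as log2, and they ranged from -2.34 to 18.62. The depth of each sample is unknown from them. The labelled cell type was checked against markers. Of 5 neural progenitor markers, 2 had a mean of at least 6, Vim at 15.42 and Sox9 at 9.38. In the vehicle controls of Q111 and Q7, in that order, Nes was at 4.96 and 10.95, Sox2 at 4.81 and 8.91, Pax6 at 2.81 and 5.41, Vim at 15.42 and 15.60, and Sox9 at 9.55 and 7.71. So 3 of these markers were lower in the Q111 line, Sox9 was higher and Vim was nearly level. Of 11 striatal markers, 9 were in the table and 3 had a mean of at least 6, among them Foxp1 at 9.88, while Drd1 (-2.18) was near the lowest value of the table. All 3 fibroblast markers were above 6. In the Q111 and Q7 vehicles, in that order, Col1a2 was at 13.03 and 10.33, Col1a1 at 14.63 and 14.65 and Pdgfrb at 10.77 and 10.74. Of these only Col1a2 differed clearly between the lines. Of the fat cell markers Adipoq was at -2.23, Plin1 at -0.75 and Fabp4 at 3.60. The hepatocyte markers Alb and Apoa1 were at -2.07 and -1.19, and the microglia markers Aif1, Cx3cr1 and Csf1r at -2.18, -1.81 and 2.01. Neuron markers had 1 of 4 at 6 or more (Map2, 8.37), astrocyte markers 1 of 2 in the table (Slc1a3, 7.11) and oligodendrocyte markers 0 of 2. Gsx2, Drd2, Aqp4, Olig1, Olig2, Mog and Lep were not analysed here.

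As background, cells build saturated fatty acids in the cytosol from acetyl-CoA, which comes from citrate or acetate, and then lengthen them and add double bonds. The sterol regulatory element-binding proteins, of which Srebf1 encodes one, turn on these genes and those of cholesterol synthesis, and sterols restrain them. In the brain the products go into membranes and myelin, and little cholesterol comes there from the blood.

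Of the 10 genes, 7 had an entry among the RefSeq promoters (build GRCm38.p6, 250 bases before to 50 after the start), and Scd1, Scd2 and Fads1 had none. The SRE letters TCACNCCAC, searched on both strands, were found in 0 of the 7 and in 1.24% of all 32851 promoters, and the E-box CACGTG in 0 of 7 and 7.15%. The NF-Y letters CCAAT were found in 4 of 7 (Srebf1, Acly, Acss2 and Fasn) against 37.4% of all promoters, and the GC box GGGCGG in 4 of 7 (Srebf1, Acly, Acss2 and Fads2) against 35.7%. A gene was counted if any of its entries held the letters, and Srebf1 has 3 entries. The shares of all promoters are per promoter, so they are not counted in the same way. Acaca and Elovl6 held none of these motifs, but the only Acaca entry (84195188 to 84195487) lies inside the gene's span, whose first base is 84129672, so the promoter at the start of the span was not searched. The 250 bases before the start are printed 5′ to 3′ for 3 genes, all on the minus strand, because Acly and Fasn had like patterns over the 16 condition means (Pearson's r 0.90), while Srebf1, which encodes a factor that acts on such genes, had another (r 0.094 with Fasn and 0.33 with Acly, or -0.024 and 0.24 without the Q7 line). They are Fasn (chr11:120824548-120824797), Acly (chr11:100528001-100528250) and the start listed as 1 of 3 for Srebf1 (chr11:60210472-60210721), which also lies inside the gene's span, with NF-Y and GC box letters in capitals.
Fasn: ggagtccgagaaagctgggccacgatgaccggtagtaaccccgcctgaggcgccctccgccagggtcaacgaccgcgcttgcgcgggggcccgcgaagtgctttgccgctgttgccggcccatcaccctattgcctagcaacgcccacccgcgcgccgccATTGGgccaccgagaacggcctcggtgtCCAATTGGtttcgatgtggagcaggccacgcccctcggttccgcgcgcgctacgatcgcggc
Acly: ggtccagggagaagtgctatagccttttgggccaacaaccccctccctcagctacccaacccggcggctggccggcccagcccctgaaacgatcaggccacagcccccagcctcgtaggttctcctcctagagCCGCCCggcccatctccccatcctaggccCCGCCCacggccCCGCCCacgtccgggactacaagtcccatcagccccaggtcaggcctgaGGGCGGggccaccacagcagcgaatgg
Srebf1: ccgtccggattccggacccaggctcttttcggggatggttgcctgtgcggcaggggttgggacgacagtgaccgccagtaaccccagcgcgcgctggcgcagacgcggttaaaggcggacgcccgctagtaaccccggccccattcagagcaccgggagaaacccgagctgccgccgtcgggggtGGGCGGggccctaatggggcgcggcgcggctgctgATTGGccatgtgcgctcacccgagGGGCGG
Counted from the start, the 3 NF-Y matches of Fasn begin at positions -90, -62 and -59, and the last 2 overlap. In Acly 4 GC boxes begin at -117, -88, -76 and -27, and its 1 NF-Y match begins at 37, after the start and outside the printed stretch. The Srebf1 entry held 2 GC boxes, at -65 and -6, and 1 NF-Y match at -30. A match is a description of letters, and no match says only that they are not in the window.

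**Figure D1:**
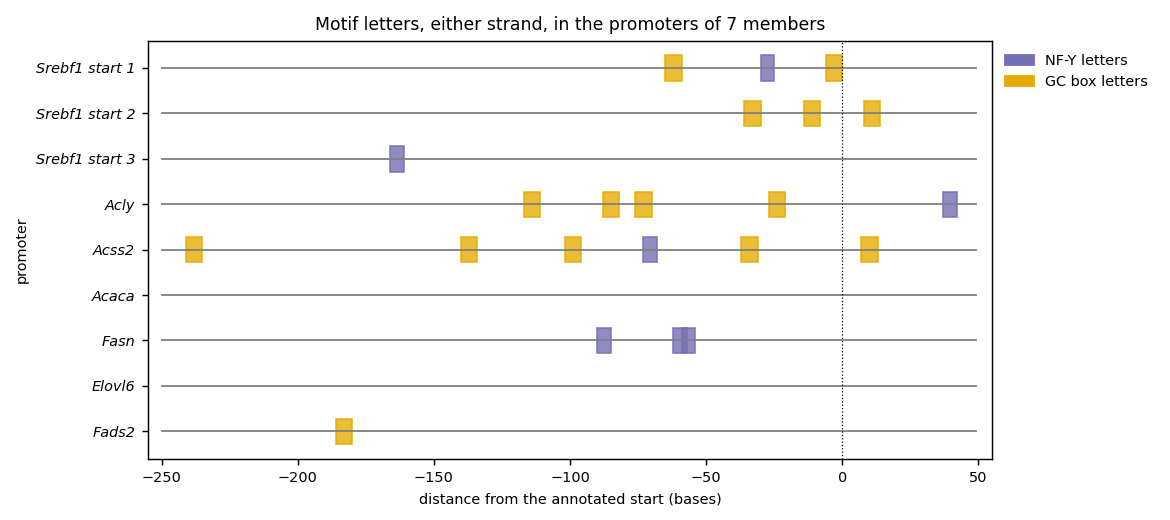
Motif matches in 9 promoter entries of 7 genes, with distance from the annotated start in bases on the x axis and 1 line per entry on the y axis. Each mark is 1 match on either strand, and Acss2 holds 1 NF-Y match and 5 GC boxes while Acaca and Elovl6 hold none.

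The 10 genes differed in how far their condition means spread. The difference between the highest and the lowest of 16 condition means was 1.54 on the log2 scale for Acss2, 1.24 for Fads2, 1.19 for Fasn, 1.10 for Elovl6, 1.03 for Scd2, 0.96 for Acly and 0.94 for Scd1. It was 0.54 for Srebf1, 0.53 for Fads1 and 0.50 for Acaca. The SD between replicates, after condition and collection day, lay between 0.0669 (Fads1) and 0.141 (Acss2), beside a median of 0.0860 over all genes tested. Abundance is not per length, so levels are compared only within a gene. In such bulk samples, fewer cells that express a gene and less RNA of it per cell cannot be told apart.

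**Figure D2:**
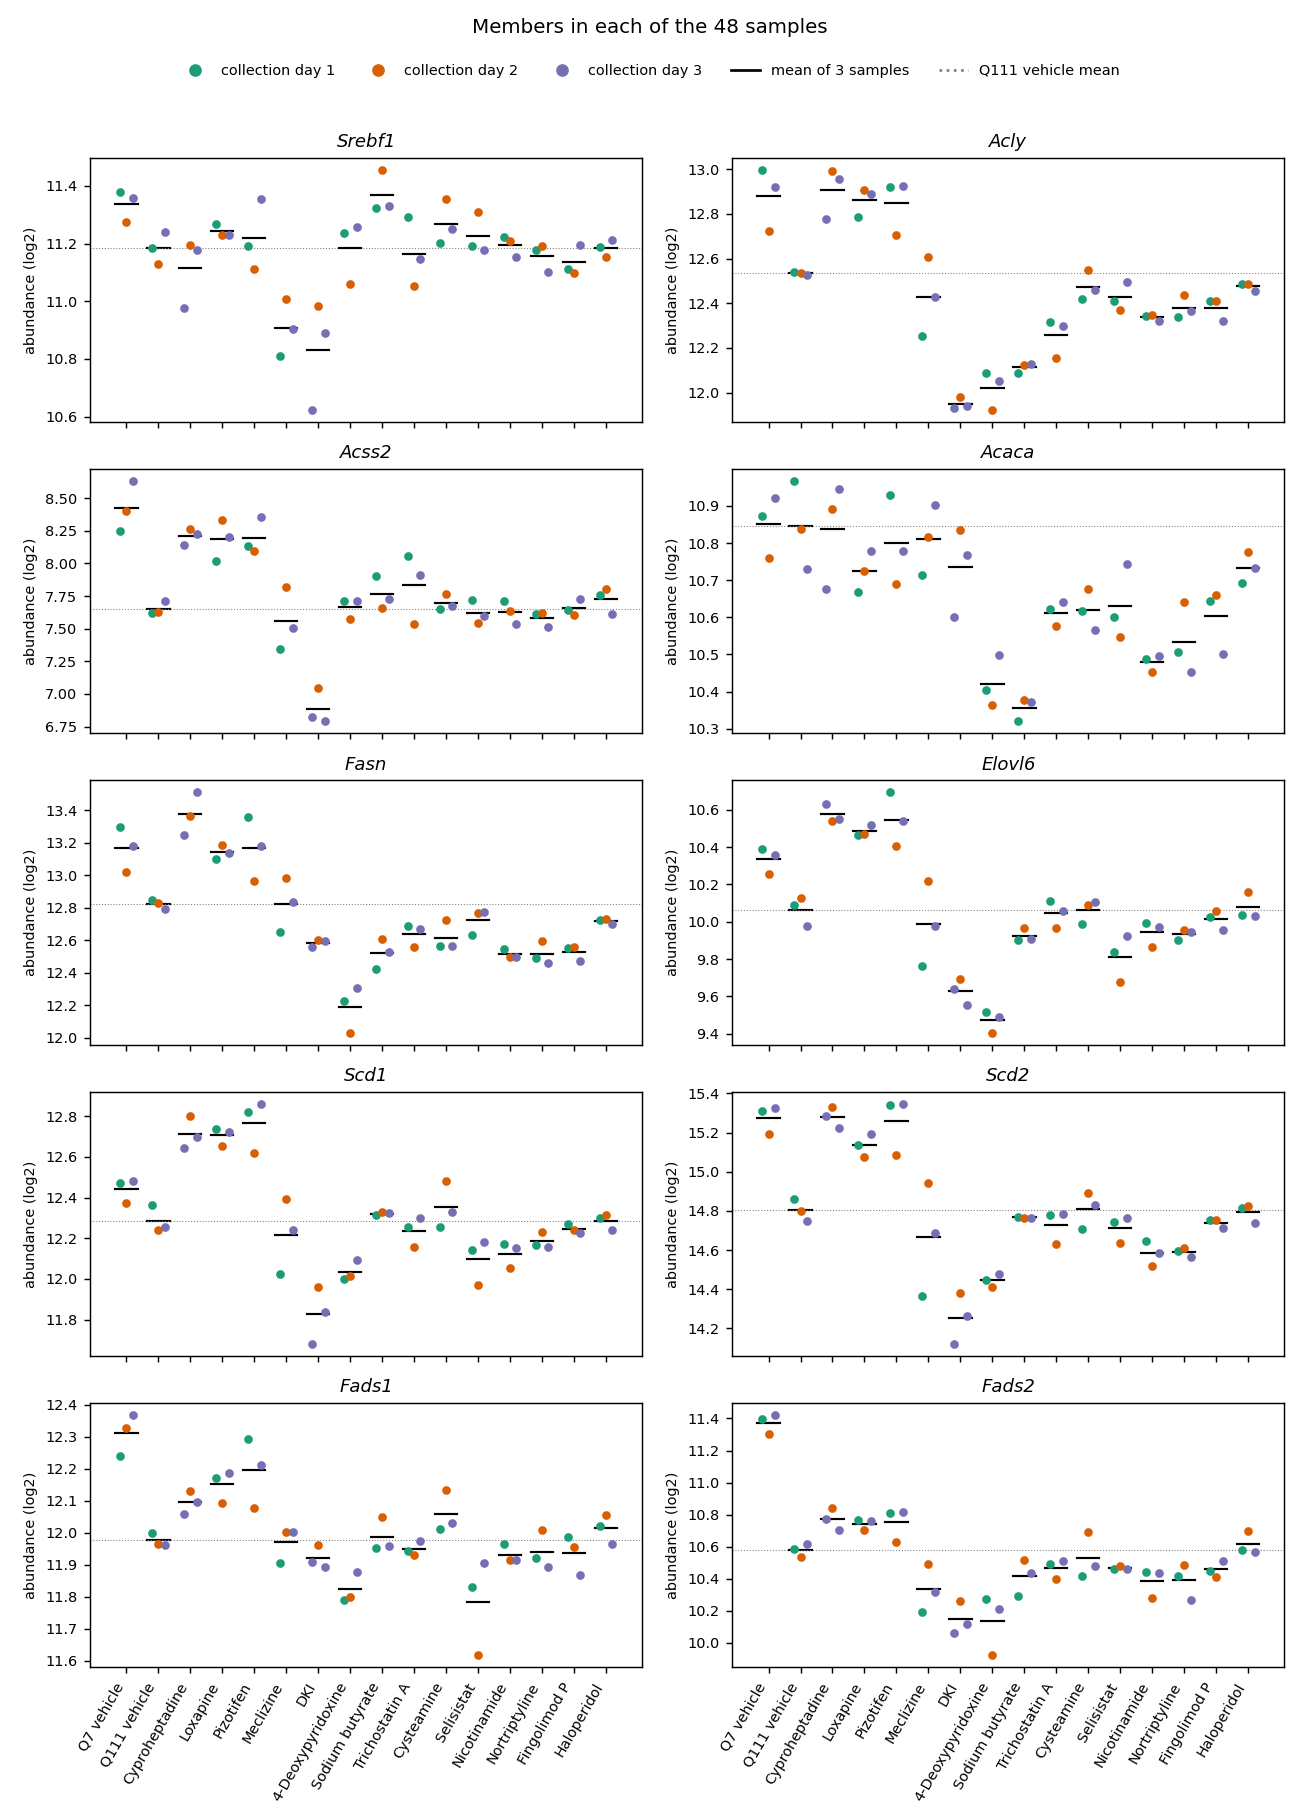
Abundance (log2) of the 10 genes in all 48 samples, with the 16 conditions on the x axis and a panel per gene. Points are samples coloured by collection day, bars are means of 3, and the dotted line is the Q111 vehicle mean, above which every sample of cyproheptadine, loxapine and pizotifen sits for Acly (12.71 to 12.99) and Elovl6 (10.40 to 10.69).

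Srebf1 (ENSMUSG00000020538, chromosome 11, 60199089 to 60222581, build GRCm38 here and for the other genes) encodes the transcription factor that drives fatty acid synthesis genes. Its span overlaps the end of Rai1 on the other strand and the microRNA genes Mir6921 and Mir6922. Its abundance was 11.19, 11.13 and 11.24 in the Q111 vehicle and 11.38, 11.27 and 11.36 in the Q7 vehicle. In group A it was 10.98, 11.19 and 11.18 with cyproheptadine, 11.27, 11.23 and 11.23 with loxapine and 11.19, 11.11 and 11.36 with pizotifen. All 3 group A conditions overlapped the vehicle samples. DKI samples were at 10.62, 10.98 and 10.89 and meclizine samples at 10.81, 11.01 and 10.90, all below every vehicle sample. Differences are fitted log2 differences of 3 samples against 3 with their SE, and called means an adjusted p under 0.05 over all genes tested. The difference from the vehicle was -0.35 (SE 0.0742, adjusted p = 0.000184) for DKI and -0.28 (SE 0.0733, adjusted p = 0.00404) for meclizine. The condition means ran from 10.83 (DKI) to 11.37 (sodium butyrate), and each of the 15 pairs of neighbours in that order overlapped.

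Acly (ENSMUSG00000020917, chromosome 11, 100476353 to 100528000) encodes ATP citrate lyase, which splits citrate to acetyl-CoA in the cytosol, and its span holds Mir7116. The Q111 vehicle samples were at 12.54, 12.54 and 12.53 and the Q7 vehicle samples at 13.00, 12.72 and 12.92. Cyproheptadine gave 12.78, 12.99 and 12.96, loxapine 12.79, 12.91 and 12.89 and pizotifen 12.92, 12.71 and 12.92. All 12 of these samples were above every Q111 vehicle sample. DKI samples stood at 11.93, 11.98 and 11.94, 4-deoxypyridoxine samples at 12.09, 11.92 and 12.05 and sodium butyrate samples at 12.09, 12.12 and 12.13, all below the vehicle. The differences were 0.37 (SE 0.0718, adjusted p = 8.03e-05) for cyproheptadine, -0.58 (SE 0.0718, adjusted p = 1.88e-08) for DKI, -0.51 (SE 0.071, adjusted p = 4.61e-06) for 4-deoxypyridoxine and -0.42 (SE 0.071, adjusted p = 1.38e-05) for butyrate. In the order of the 16 means, from cyproheptadine down to DKI, 4 of 15 pairs of neighbours did not overlap: pizotifen and the Q111 vehicle, that vehicle and haloperidol, nicotinamide and trichostatin A, and trichostatin A and butyrate.

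Acss2 (ENSMUSG00000027605, chromosome 2, 155517948 to 155585724) encodes the acetyl-CoA synthetase that uses acetate. Ggt7, Gss and Acss2os overlap it on the other strand and the pseudogenes Mipep-ps and Gm20637 on the same strand. It was the member with the widest range. Vehicle samples of Q111 were at 7.62, 7.63 and 7.71, and those of Q7 at 8.25, 8.40 and 8.63. With cyproheptadine it was at 8.14, 8.26 and 8.22, with loxapine at 8.02, 8.33 and 8.20 and with pizotifen at 8.13, 8.10 and 8.35. These 9 samples were all above the Q111 vehicle. Under DKI it was at 6.83, 7.05 and 6.79, and under meclizine at 7.35, 7.82 and 7.50, which overlapped the vehicle. The DKI samples were the lowest of the 48, and the meclizine and DKI samples, the last neighbours in the order, were the only pair of 15 that did not overlap. The difference from the vehicle was 0.56 (SE 0.109, adjusted p = 0.000105) for cyproheptadine, a fold of 1.47, and -0.77 (SE 0.109, adjusted p = 3.67e-07) for DKI, a fold of 0.588.

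Acaca (ENSMUSG00000020532, chromosome 11, 84129672 to 84401651) encodes acetyl-CoA carboxylase alpha, which makes malonyl-CoA. Of its 9464 windows of 50 bases, 52.6% occur also in the processed pseudogene Gm5182, which was not analysed here, so reads of the 2 genes may be mixed and its values are less certain. Gm11437 on the other strand and Gm37391 overlap its span. It was at 10.97, 10.84 and 10.73 in the Q111 vehicle, the widest range of the 10 genes in this group, and at 10.87, 10.76 and 10.92 in the Q7 vehicle. Cyproheptadine samples were at 10.68, 10.89 and 10.95 and loxapine samples at 10.67, 10.72 and 10.78. Neither condition was called different from the vehicle. Lower values came with sodium butyrate (10.32, 10.38 and 10.37), 4-deoxypyridoxine (10.40, 10.36 and 10.50) and nicotinamide (10.49, 10.45 and 10.50). These 9 samples were all below the vehicle samples, with differences of -0.49 (SE 0.0708, adjusted p = 1.17e-06), -0.42 (SE 0.0708, adjusted p = 5.99e-05) and -0.37 (SE 0.0708, adjusted p = 0.000934). None of them was collected in the vehicle's combinations of day and time. Against nicotinamide and nortriptyline, collected in the same combinations as they were, butyrate differed by -0.15 and 4-deoxypyridoxine by -0.085. Neither was called, and that reference was chosen after seeing the data. Each of the 15 pairs of neighbours in the order of means overlapped.

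Fasn (ENSMUSG00000025153, chromosome 11, 120805846 to 120824547), with no overlapping gene, encodes fatty acid synthase, which makes palmitate. It was at 12.85, 12.83 and 12.79 in the Q111 vehicle and 13.30, 13.02 and 13.18 in the Q7 vehicle. Samples with cyproheptadine were at 13.25, 13.37 and 13.51, with loxapine at 13.10, 13.18 and 13.14 and with pizotifen at 13.35, 12.96 and 13.18. All were above the Q111 vehicle samples. The lowest condition was 4-deoxypyridoxine at 12.23, 12.03 and 12.31, below every other sample. DKI was at 12.56, 12.60 and 12.59 and butyrate at 12.42, 12.61 and 12.53, both below the vehicle, while meclizine at 12.65, 12.98 and 12.83 spanned it. The fitted difference was 0.55 (SE 0.0838, adjusted p = 2.36e-06) for cyproheptadine (fold 1.47) and -0.63 (SE 0.0828, adjusted p = 2.47e-06) for 4-deoxypyridoxine (fold 0.644). Of 15 pairs of neighbours 4 did not overlap: loxapine and meclizine, the Q111 vehicle and selisistat, haloperidol and trichostatin A, and nicotinamide and 4-deoxypyridoxine.

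Elovl6 (ENSMUSG00000041220, chromosome 3, 129532355 to 129638495) encodes the elongase that turns palmitate to stearate. Gm35986 overlaps it on the other strand and Gm43072 lies within it, and 4.59% of its 50-base windows occur in other genes. Its Q111 vehicle samples were at 10.09, 10.13 and 9.98 and its Q7 vehicle samples at 10.39, 10.26 and 10.36. Cyproheptadine samples were at 10.63, 10.54 and 10.55, loxapine samples at 10.47, 10.47 and 10.52 and pizotifen samples at 10.69, 10.40 and 10.54. These 9 were the 9 highest of the 48. With DKI it was at 9.64, 9.69 and 9.56 and with 4-deoxypyridoxine at 9.52, 9.41 and 9.49, all below every vehicle sample, and these 2 conditions did not overlap each other. The differences were 0.51 (SE 0.0746, adjusted p = 1.21e-06), 0.42 (SE 0.0738, adjusted p = 7.46e-05) and 0.48 (SE 0.0738, adjusted p = 1.34e-05) for the group A compounds in that order, -0.43 (SE 0.0746, adjusted p = 9.71e-06) for DKI and -0.59 (SE 0.0738, adjusted p = 1.27e-06) for 4-deoxypyridoxine. Loxapine and the Q7 vehicle, and the Q7 vehicle and haloperidol, were the other neighbours that did not overlap, so 3 of 15 pairs in all.

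Scd1 (ENSMUSG00000037071, chromosome 19, 44394455 to 44407879) and Scd2 (ENSMUSG00000025203, chromosome 19, 44293674 to 44306864) encode stearoyl-CoA desaturases, which put a double bond in saturated fatty acids, and Scd2 is the form known from brain. They lie 87590 bases apart on opposite strands, and Mir5114 lies in Scd2. Because 4.66% of 50-base windows of Scd1 and 4.01% of those of Scd2 also occur in other Scd genes, a small part of the reads could have come from the other gene. Scd1 was at 12.36, 12.24 and 12.25 in the Q111 vehicle, 12.64, 12.80 and 12.70 with cyproheptadine, 12.74, 12.66 and 12.72 with loxapine and 12.82, 12.62 and 12.86 with pizotifen. Scd2 was at 14.86, 14.80 and 14.75, 15.28, 15.33 and 15.22, 15.14, 15.08 and 15.19 and 15.34, 15.08 and 15.35 in the same conditions. Group A samples were above the vehicle in both genes with no overlap. DKI samples of Scd1 were at 11.68, 11.96 and 11.84, and those of Scd2 at 14.12, 14.38 and 14.26. These were below the vehicle in both genes. The Q7 vehicle was at 12.47, 12.37 and 12.48 for Scd1 and 15.31, 15.19 and 15.33 for Scd2. For Scd1 the Q7 samples were above the Q111 vehicle samples but the difference, 0.16 (adjusted p = 0.0704), was not called, while for Scd2 it was 0.47 (SE 0.0915, adjusted p = 3.08e-05). Whether the genes differed in this was not tested. In the order of means, 2 pairs of Scd1 neighbours did not overlap (loxapine and the Q7 vehicle, 4-deoxypyridoxine and DKI). For Scd2 these were 4 pairs: loxapine and cysteamine, butyrate and fingolimod phosphate, nicotinamide and 4-deoxypyridoxine, and 4-deoxypyridoxine and DKI.

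Fads1 (ENSMUSG00000010663, chromosome 19, 10182888 to 10196877) and Fads2 (ENSMUSG00000024665, chromosome 19, 10062765 to 10101746) encode the desaturases of polyunsaturated fatty acid synthesis. They lie 81141 bases apart on opposite strands, Mir6993 lies in Fads1, and 0.161% of 50-base windows of Fads2 occur in Fads3. Fads1 was at 11.998, 11.966 and 11.963 in the Q111 vehicle and 12.240, 12.326 and 12.367 in the Q7 vehicle. Fads2 was at 10.59, 10.54 and 10.62 and 11.40, 11.30 and 11.42 in the same groups. Both genes were higher in every Q7 sample, and the Q7 samples were the 3 highest of the 48 for Fads2. The differences were 0.34 (SE 0.0568, adjusted p = 3.75e-06) for Fads1 and 0.79 (SE 0.0791, adjusted p = 4.58e-11) for Fads2, a fold of 1.73. Of the treated Q111 conditions, cyproheptadine had Fads2 at 10.77, 10.84 and 10.70, DKI at 10.06, 10.26 and 10.12 and 4-deoxypyridoxine at 10.27, 9.92 and 10.21. DKI and 4-deoxypyridoxine samples were all below the vehicle, with differences of -0.44 (SE 0.08, adjusted p = 2.58e-05) and -0.45 (SE 0.0791, adjusted p = 0.000123). Cyproheptadine samples were all above it, but the difference of 0.19 (adjusted p = 0.0608) was not called. In Fads1 the DKI samples, 11.910, 11.963 and 11.892, lay just below the vehicle samples, and their difference of -0.055 (adjusted p = 0.478) was not called. For Fads1 1 pair of neighbours of 15 did not overlap (DKI and 4-deoxypyridoxine), and for Fads2 2 pairs (the Q7 vehicle and cyproheptadine, loxapine and haloperidol).

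The study compared each compound with the Q111 vehicle, and these comparisons share the vehicle samples. With cyproheptadine, 6 of the 10 genes were called higher, against 17.5% of all genes tested, and 0 lower: Acly, Acss2, Fasn, Scd1, Scd2 and Elovl6. With loxapine, 7 were called higher, against 10.1% of all genes, and with pizotifen also 7, against 8.86%, which were in both cases the same 6 and Fads1. The median difference of the 10 genes was 0.40 for cyproheptadine, 0.32 for loxapine and 0.33 for pizotifen on the log2 scale, beside medians of -0.00068, 0.0048 and -0.0047 over all genes. Fasn differed by 0.32 (adjusted p = 0.00479) with loxapine and 0.34 (adjusted p = 0.00307) with pizotifen, Scd1 by 0.42 (adjusted p = 8.01e-05) and 0.48 (adjusted p = 1.49e-05), and Fads1 by 0.18 (adjusted p = 0.0231) and 0.22 (adjusted p = 0.00573). Against the vehicle sample of the same collection day, each sample of the 3 compounds was higher in each called gene. With cyproheptadine, for example, this was by 0.45 to 0.71 for Fasn and 0.43 to 0.64 for Acss2. By its labels cyproheptadine had no sample of day 1, and its 2 samples of day 3 were set against the same vehicle sample. The p-values measure only the spread between the samples compared, whose labels say triplicate and not whether the cultures were separate.

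Some calls of group A ended when 1 library was left out. The loxapine call of Fads1 (called in 10 of 14 settings, adjusted p 0.0169 to 0.0968) ended without vehicle replicate 2 (0.17), vehicle replicate 3 (0.17), loxapine replicate 1 (0.16) or loxapine replicate 3 (0.16). Without pizotifen replicate 1 the pizotifen calls of Fasn (0.24; called in 13 of 14 settings, adjusted p 0.000395 to 0.0626) and Fads1 (0.17; called in 13 of 14 settings, adjusted p 0.00157 to 0.0736) ended. In the pizotifen samples, the median difference of the 10 genes from the vehicle was 0.43, 0.16 and 0.37 for replicates 1, 2 and 3.

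**Figure D3:**
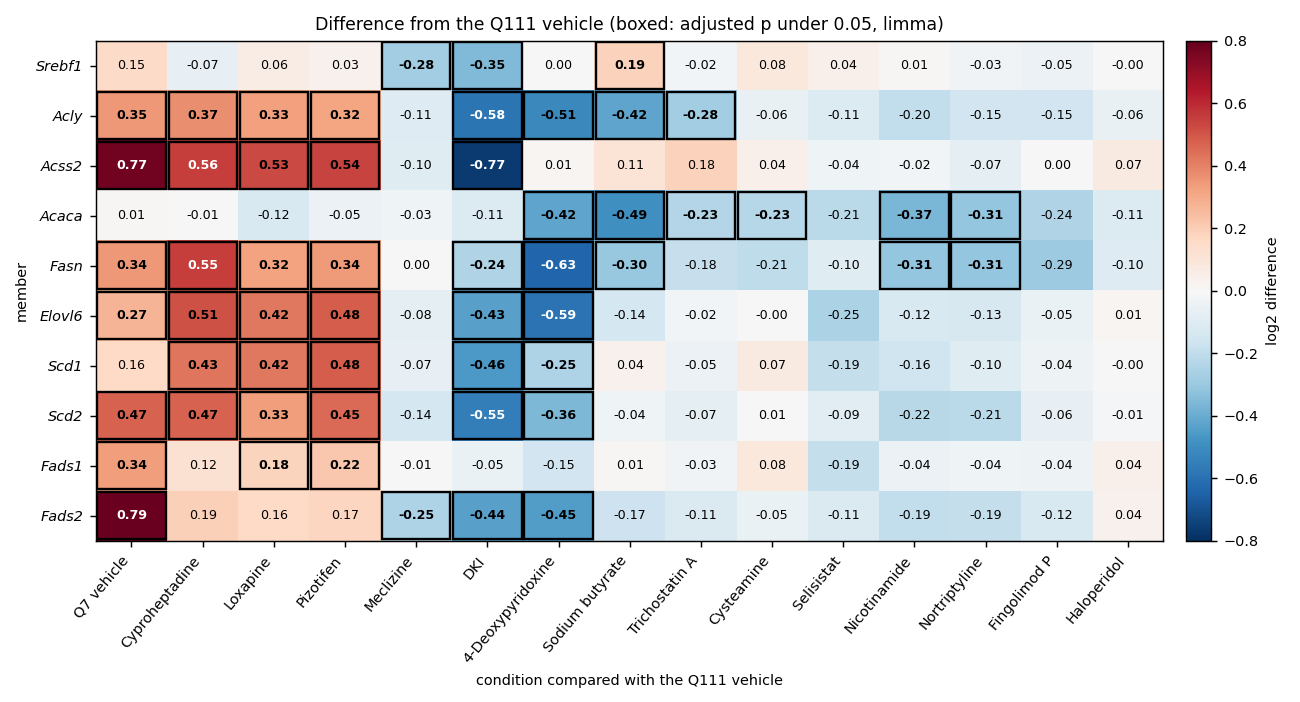
Log2 difference from the Q111 vehicle for 10 genes (y axis) in 14 compounds and the Q7 vehicle (x axis), coloured from lower to higher, with a box where the adjusted p is under 0.05. Values range from -0.77 (Acss2 with DKI) to 0.79 (Fads2 in the Q7 vehicle).

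In group B, DKI and meclizine had different counts. With DKI 8 of the 10 genes were called lower, against 21.9% of all genes, and 0 higher; Acaca (-0.11) and Fads1 (-0.055) were not called. The median of the 10 was -0.44, beside -0.0058 over all genes. Scd1 fell by 0.46 (adjusted p = 4.14e-06), Scd2 by 0.55 (adjusted p = 6.42e-06) and Fasn by 0.24 (adjusted p = 0.0194). Within collection days, all 3 DKI samples were lower in each called gene, for Acss2 by -0.92 to -0.58. By their labels 2 of these samples were of day 3 and were set against the same vehicle sample, and none was of day 1. Fasn was called in 11 of 14 settings, adjusted p 0.0137 to 0.102, and it was not called without vehicle replicate 1 (-0.23) or without DKI replicate 1 (-0.23).

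With meclizine 2 of the 10, Srebf1 and Fads2, were called lower, against 13.6% of all genes called lower, with a median of -0.086 beside -0.0037 over all genes. Fads2 was at 10.19, 10.49 and 10.32 with meclizine, and its difference was -0.25 (SE 0.0791, adjusted p = 0.0172). The 3 meclizine samples stood apart from each other: the median difference of the 10 genes from the vehicle was -0.29, 0.092 and -0.098 for replicates 1, 2 and 3, and Scd2 within days ran from -0.50 to 0.15. Without meclizine replicate 2, Acly (-0.20), Scd2 (-0.29) and Elovl6 (-0.20) were also called lower, 5 in all. The Fads2 call (called in 10 of 14 settings, adjusted p 0.00409 to 0.162) ended without vehicle replicate 1 (-0.24), vehicle replicate 3 (-0.23), meclizine replicate 1 (-0.18) or meclizine replicate 3 (-0.24).

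The direct comparisons of treated groups do not use the vehicle, but they too differ in the combinations of day and time. Of 3 combinations of day and time, cyproheptadine shared 3 with DKI and 1 with meclizine, pizotifen 1 with DKI and 3 with meclizine, and DKI 1 with meclizine, while loxapine shared 0 with cyproheptadine, DKI or meclizine. All 5 compounds had 1 sample at each time, and with collection time as a further term the 4 direct comparisons had 21 calls in place of 22. In group A against group B, the mean of the group A compounds was set against that of the group B compounds, with 9 samples against 6. Its SE and p-values measure the spread between samples of the same compound, and not the spread between compounds of a group. In group B the compounds differed in some genes, as given below for DKI against meclizine. Of the 10 genes, 9 were called higher in group A, against 19.9% of all genes, with a median of 0.60 beside -0.002 over all genes. The differences were 0.97 (SE 0.0698, adjusted p = 4.44e-14) for Acss2, 0.77 (SE 0.0591, adjusted p = 3.39e-13) for Scd2, 0.73 (SE 0.0477, adjusted p = 4.38e-15) for Elovl6 and 0.71 (SE 0.0479, adjusted p = 1.09e-14) for Scd1. In 7 of the 9 genes the sample ranges did not overlap. The share of all genes tested without overlap was not counted, so whether this is unusual cannot be said. For Srebf1, 0.32 (adjusted p = 6.19e-07), and Fasn, 0.52 (adjusted p = 3.18e-10), 8 of the 9 group A samples were above all of group B. Acly differed by 0.68, Fads2 by 0.52 and Fads1 by 0.20. Acaca was not called, at 0.014 (95% interval -0.079 to 0.11). Leaving out any 1 sample gave 9 calls each time.

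Cyproheptadine and loxapine, given at the same dose, differ in structure: the first has a piperidine on a ring system of carbon alone, and the second a piperazine on a ring system that holds oxygen and nitrogen. Between them limma called 0 of the 10 genes, against 10.5% of all genes called either way, and 1 of the 10 was at an unadjusted p under 0.05, against 24.1% of all genes. Fasn had a difference of 0.23 (95% interval 0.064 to 0.40, adjusted p = 0.0683), and without cyproheptadine replicate 1 it was called at 0.30 (called in 2 of 17 settings, adjusted p 0.0414 to 0.301). For Acss2 the interval was -0.20 to 0.25, for Elovl6 -0.06 to 0.24, for Scd1 -0.15 to 0.16 and for Acly -0.099 to 0.19. Pizotifen, given at a lower dose, was not compared with them.

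Cyproheptadine against meclizine, both at 10 µM, had 8 of 10 genes called higher, against 9.83% of all genes, with a median of 0.49 beside -0.007. The differences were 0.65 (SE 0.109, adjusted p = 3.83e-05) for Acss2, 0.61 (SE 0.0925, adjusted p = 8.26e-06) for Scd2 and 0.59 (SE 0.0746, adjusted p = 5.61e-07) for Elovl6, and Fasn, Scd1, Acly and Fads2 lay between 0.44 and 0.55. Srebf1, at 0.21 (adjusted p = 0.0411), was called in 10 of 17 settings, adjusted p 0.0152 to 0.207, and its call ended without meclizine replicate 1 (0.16), meclizine replicate 3 (0.21), cyproheptadine replicate 2 (0.17) or cyproheptadine replicate 3 (0.18). With only the compared samples in the fit, Fasn (0.47; called in 16 of 17 settings, adjusted p 1.67e-06 to 0.0522) and Scd2 (0.49; called in 16 of 17 settings, adjusted p 7.67e-08 to 0.0582) were not called either, which left 5. Acaca (0.029) and Fads1 (0.12) were not called.

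DKI against meclizine, both from group B and both at 10 µM, had 5 genes called lower with DKI, against 3.8% of all genes, with a median of -0.30 beside -0.0016. Acss2 differed by -0.67 (SE 0.109, adjusted p = 8.81e-05), Acly by -0.48 (SE 0.0718, adjusted p = 2.79e-05) and Scd1 by -0.39 (SE 0.075, adjusted p = 0.000745), with no overlap of samples. Elovl6 differed by -0.36 (adjusted p = 0.00181), also with no overlap, and Scd2 by -0.41 (adjusted p = 0.00357), with overlap. Scd2 was not called without meclizine replicate 2 (-0.26) or DKI replicate 1 (-0.35; called in 14 of 17 settings, adjusted p 5.68e-05 to 0.207), and Elovl6 not without meclizine replicate 2 (-0.23; called in 15 of 17 settings, adjusted p 4.98e-05 to 0.0745). With only the compared samples in the fit, Acly (-0.55; called in 16 of 17 settings, adjusted p 2.77e-06 to 0.0604), Scd1 (-0.46; called in 16 of 17 settings, adjusted p 5.45e-05 to 0.0993), Scd2 (-0.52) and Elovl6 (-0.44) were not called, which left 1 call, Acss2. Fasn, at -0.24 (adjusted p = 0.0698), was called without meclizine replicate 1 (-0.33; called in 2 of 17 settings, adjusted p 0.0193 to 0.396). Srebf1, Acaca, Fads1 and Fads2 were not called, with differences between -0.19 and -0.05.

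**Figure D4:**
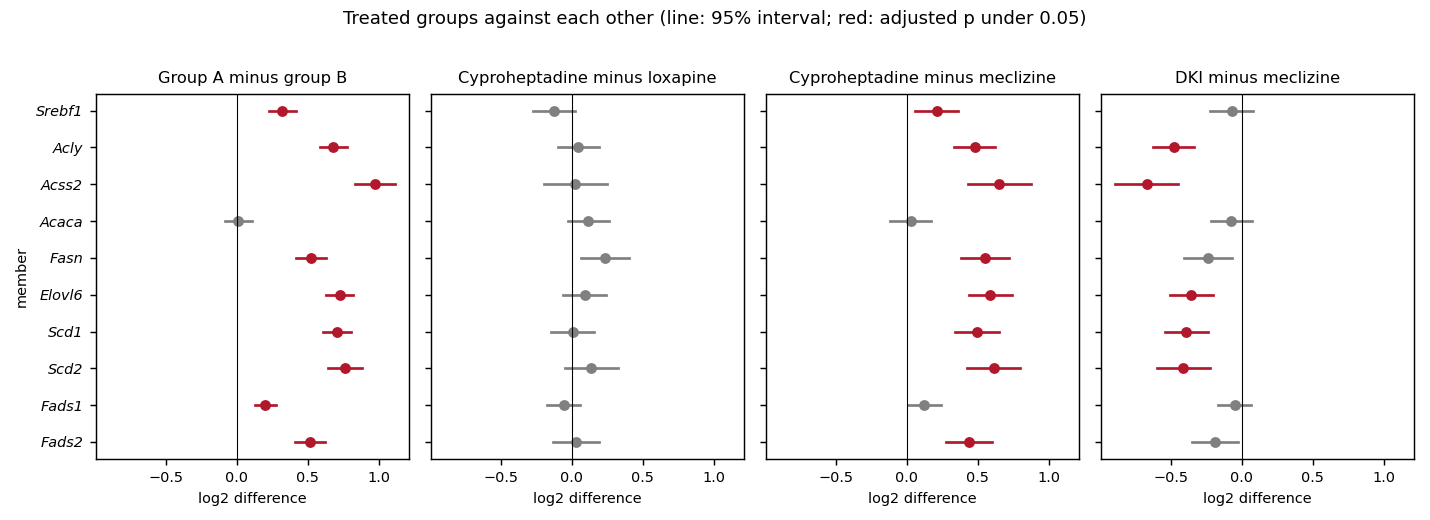
Log2 differences of the 10 genes (y axis) in 4 comparisons that do not use the vehicle, a panel each, with a point for the difference and a line for its 95% interval on the x axis. Red marks an adjusted p under 0.05: 9 genes for group A minus group B, 0 for cyproheptadine minus loxapine, 8 for cyproheptadine minus meclizine and 5 for DKI minus meclizine.

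4-Deoxypyridoxine, at 4 mM, gave 7 of 10 genes called lower, against 11.2% of all genes, and 0 higher, with a median of -0.39 beside 0.0045 over all genes. They were Acly, Acaca, Fasn, Scd1, Scd2, Elovl6 and Fads2. Acss2 was at 7.71, 7.57 and 7.71, within reach of the vehicle, with a difference of 0.013. Srebf1, at 11.24, 11.06 and 11.26, spanned the vehicle samples. Scd2 was at 14.45, 14.41 and 14.48 and differed by -0.36 (SE 0.0915, adjusted p = 0.00467). Within collection days all 3 samples were lower in each called gene, for Fasn by -0.80 to -0.49. Scd1, at -0.25 (adjusted p = 0.0144), was called in 11 of 14 settings, adjusted p 0.0104 to 0.102, and was not called without vehicle replicate 1 (-0.21), 4-deoxypyridoxine replicate 1 (-0.23) or replicate 2 (-0.24). Fads1, at -0.15, was called without 4-deoxypyridoxine replicate 3 (-0.18; called in 4 of 14 settings, adjusted p 0.0404 to 0.169).

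Sodium butyrate and trichostatin A both inhibit histone deacetylases and were given at unlike doses, so their values stand side by side. With butyrate 3 of 10 genes were called lower (Acly, Acaca and Fasn), against 17.8% of all genes, and 1 higher (Srebf1), against 19.6%. Fasn differed by -0.30 (adjusted p = 0.00381). Srebf1, at 11.32, 11.46 and 11.33, differed by 0.19 (adjusted p = 0.0439) and was called in 5 of 14 settings, adjusted p 0.0361 to 0.192. Its call ended without vehicle replicate 1 (0.19), vehicle replicate 2 (0.15) or butyrate replicates 1 (0.21), 2 (0.14) or 3 (0.20). With trichostatin A 2 genes were called lower, against 6.68% of all genes: Acly, at 12.32, 12.15 and 12.30, by -0.28 (adjusted p = 0.00675), and Acaca, at 10.62, 10.58 and 10.64, by -0.23 (adjusted p = 0.0242). The call of Acly (called in 13 of 14 settings, adjusted p 0.00443 to 0.0607) ended without trichostatin A replicate 2 (-0.22). That of Acaca (called in 9 of 14 settings, adjusted p 0.0104 to 0.203) ended without vehicle replicate 1 (-0.17) or 2 (-0.24), or trichostatin A replicate 1 (-0.24) or 2 (-0.21). Acss2, at 0.18, was called without trichostatin A replicate 2 (0.34; called in 1 of 14 settings, adjusted p 0.0351 to 0.831).

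The other compounds had few calls. Cysteamine had 1 gene called lower, Acaca, against 5.5% of all genes, at 10.62, 10.68 and 10.57, with a difference of -0.23 (adjusted p = 0.0422). That call (called in 8 of 14 settings, adjusted p 0.0143 to 0.334) ended without vehicle replicate 1 (-0.16) or 2 (-0.23), or cysteamine replicate 1 (-0.22) or 3 (-0.20). Nicotinamide had 2 called lower, Acaca and Fasn, against 7.59% of all genes. Its Fasn, at 12.54, 12.49 and 12.50, differed by -0.31 (adjusted p = 0.0131; called in 11 of 14 settings, adjusted p 0.00528 to 0.0873) and was not called without vehicle replicate 1 (-0.30), vehicle replicate 2 (-0.31) or nicotinamide replicate 2 (-0.30).

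Nortriptyline had the same 2 genes called lower, against 3.08% of all genes. Acaca, at 10.51, 10.64 and 10.45, differed by -0.31 (adjusted p = 0.00983; called in 11 of 14 settings, adjusted p 0.00335 to 0.147) and was not called without vehicle replicate 1 (-0.25), nortriptyline replicate 1 (-0.30) or 3 (-0.27). Fasn, at 12.49, 12.60 and 12.46, differed by -0.31 (adjusted p = 0.0282; called in 10 of 14 settings, adjusted p 0.0191 to 0.158) and was not called without vehicle replicate 1 (-0.30) or 2 (-0.30), or nortriptyline replicate 1 (-0.29) or 3 (-0.28). For selisistat limma called 0 of 10, against 0.515% of all genes called, and 4 of the 10 were at an unadjusted p under 0.05, against 17.2% of all genes. Without selisistat replicate 3, Acaca (-0.28; called in 1 of 14 settings, adjusted p 0.0238 to 0.878), Elovl6 (-0.31; called in 1 of 14 settings, adjusted p 0.0178 to 0.878) and Fads1 (-0.26; called in 1 of 14 settings, adjusted p 0.0107 to 0.905) were called lower. For fingolimod phosphate it called 0, against 0.0597% of all genes called, and 3 of the 10 were at an unadjusted p under 0.05, against 10.5% of all genes. Without vehicle replicate 3, its Acaca was called at -0.30 (called in 2 of 14 settings, adjusted p 0.0128 to 0.669). For haloperidol it called 0, against 0% of all genes called, and 0 of the 10 were at an unadjusted p under 0.05, against 2.96% of all genes.

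Between the vehicle controls of the 2 lines, 7 of 10 genes were called higher in Q7, against 29.2% of all genes, and 0 lower, with a median of 0.34 beside 0.004. The differences were 0.77 (SE 0.108, adjusted p = 1.02e-07) for Acss2, 0.35 (adjusted p = 7.32e-05) for Acly, 0.34 (adjusted p = 0.000525) for Fasn and 0.27 (adjusted p = 0.00193) for Elovl6, beside those of Scd2, Fads1 and Fads2 above. Each Q7 sample was higher than the Q111 vehicle sample of its collection day in these genes, for Fads2 by 0.77 to 0.81. Scd1 was called without vehicle replicate 1 (0.20) or Q7 replicate 2 (0.19; called in 2 of 14 settings, adjusted p 0.0439 to 0.19). Among the markers given above, Nes, Sox2 and Pax6 stood higher in Q7, Sox9 and Col1a2 lower, and Vim, Col1a1 and Pdgfrb nearly level. The part of these markers in the differences was not tested.

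Because 11 compounds were never collected in the vehicle's own combinations of day and time, 7 of them were also compared with the mean of 2 compounds labelled with nanomolar doses and collected in the same combinations, a reference chosen after seeing the data that is itself treated cells. The labelled dose of nicotinamide, 0.5 nM, is far below what is usual for it and is in doubt. Against the vehicle, 10.4% of all genes were called with nicotinamide, 3.83% with nortriptyline, 0.0597% with fingolimod phosphate and 0% with haloperidol. Loxapine against nicotinamide and nortriptyline had 9 of 10 genes called higher, against 11.9% of all genes, and pizotifen against haloperidol and fingolimod phosphate 8, against 9.34%. Fasn differed by 0.63 (adjusted p = 3.18e-08) with loxapine and 0.54 (adjusted p = 9.4e-07) with pizotifen, and Acss2 by 0.58 and 0.50. Acaca changed sign with loxapine, from -0.12 against the vehicle to 0.22 (adjusted p = 0.00849). The samples of that reference were lower than the vehicle in Acaca and in Fasn, as given above. The mean of Fasn was 12.51 in that reference, 12.62 with haloperidol and fingolimod phosphate and 12.82 in the vehicle.

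With 4-deoxypyridoxine against nicotinamide and nortriptyline 4 genes were called lower, against 5.08% of all genes: Elovl6 (-0.47), Acly (-0.34), Fasn (-0.33) and Fads2 (-0.25). Acaca (-0.085), Scd1 (-0.12) and Scd2 (-0.14) were no longer called. Butyrate had 2 called higher, Srebf1 (0.19) and Scd1 (0.17), against 17% of all genes, and 1 lower, Acly (-0.25), against 13.8%. Its Fasn, called lower against the vehicle, was at 0.006, and its Acaca at -0.15, both not called. Meclizine against haloperidol and fingolimod phosphate had Fasn called higher (0.20), against 14.8% of all genes, and Srebf1 (-0.25) and Fads2 (-0.20) lower, against 14%. For cysteamine limma called 0, against 0.119% of all genes called, and 4 of the 10 were at an unadjusted p under 0.05, against 8.73% of all genes, with Acaca at 0.11. For trichostatin A it called 0, against 14.4% of all genes called, and 1 of the 10 was at an unadjusted p under 0.05, against 26.7% of all genes, with Acly at -0.17 and Acaca at -0.056.

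**Figure D5:**
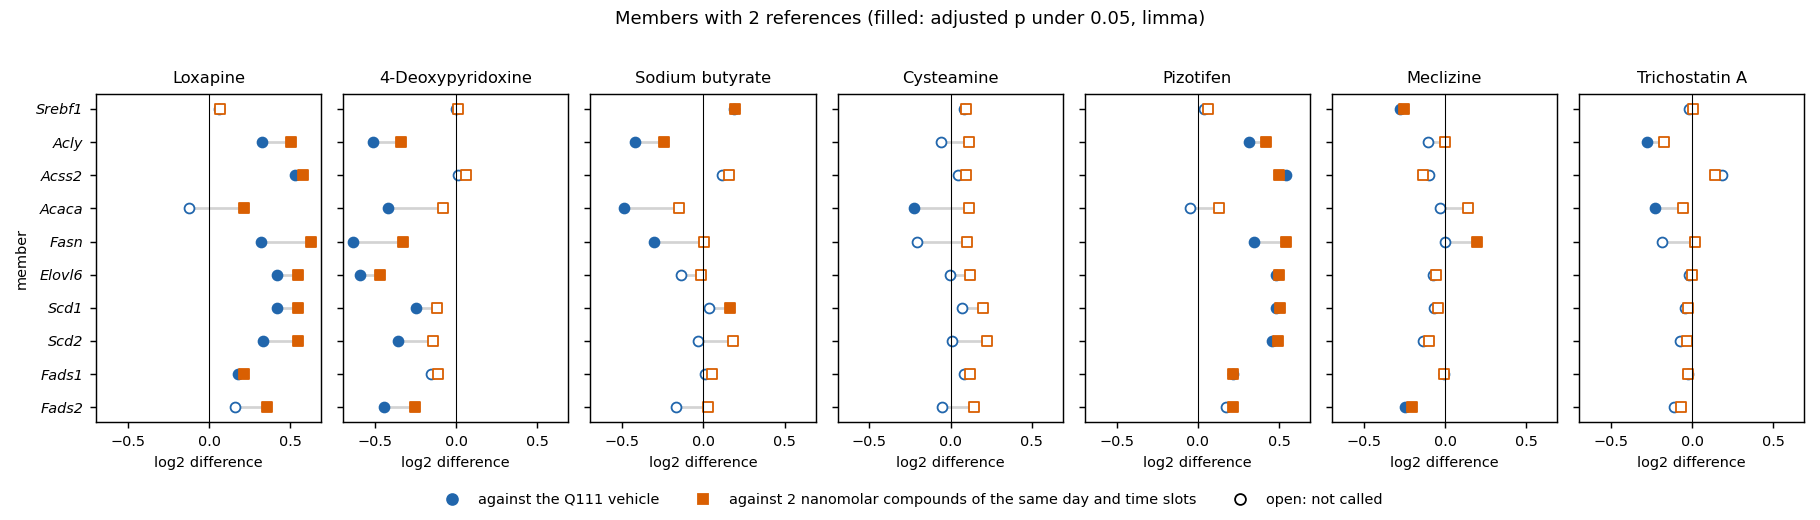
Log2 difference (x axis) of the 10 genes (y axis) for 7 compounds, a panel each, against the Q111 vehicle (circles) and against 2 compounds labelled with nanomolar doses and collected in the same combinations of day and time (squares), filled where the adjusted p is under 0.05. For loxapine and pizotifen most squares lie as far right as the circles or farther, as for Fasn with loxapine (0.63 against 0.32), while Acaca changes sign.

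Genes of neighbouring pathways were counted in lists chosen with earlier results of these data known, and each count of called genes is followed by its share of the list and the share of all genes tested that were called the same way. Of 11 other genes of elongation and desaturation, cyproheptadine had 8 higher (72.7%, all genes 17.5%) and 0 lower (0%, all genes 18.2%), loxapine 6 higher (54.5%, all genes 10.1%) and 0 lower (0%, all genes 11.8%) and pizotifen 6 higher (54.5%, all genes 8.86%) and 0 lower (0%, all genes 9.07%). Hsd17b12, which acts in the elongation cycle, rose by 0.68, 0.56 and 0.57 with the group A compounds, and Elovl5, an elongase of polyunsaturated fatty acids, by 0.53, 0.46 and 0.48. Meclizine had 5 higher (45.5%, all genes 13.1%) and 0 lower (0%, all genes 13.6%), and butyrate 4 higher (36.4%, all genes 19.6%) and 1 lower (9.09%, all genes 17.8%). DKI had 4 higher (36.4%, all genes 20.4%) and 0 lower (0%, all genes 21.9%), with Fads3 up by 0.57 and Elovl4 by 0.52, where 8 of the 10 genes fell. Fads3 also rose with the group A compounds, by 0.45, 0.25 and 0.34. Group A against group B had 4 higher (36.4%, all genes 19.9%) and 2 lower (18.2%, all genes 21.4%), with a median of -0.0012. 4-Deoxypyridoxine had 0 higher (0%, all genes 8.93%) and 4 lower (36.4%, all genes 11.2%), with Elovl4 down by 0.24 and Fads3 by 0.23, and Q7 6 higher (54.5%, all genes 29.2%) and 1 lower (9.09%, all genes 26.6%), with Hacd1 at 0.90 and Elovl5 at 0.87. The medians were 0.31 for cyproheptadine, 0.14 for DKI, -0.061 for 4-deoxypyridoxine and 0.48 for Q7.

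Of 9 genes that supply precursors and NADPH, cyproheptadine had 4 higher (44.4%, all genes 17.5%) and 1 lower (11.1%, all genes 18.2%), with a median of 0.16. Aacs, which activates acetoacetate, rose by 0.52, and Slc25a1, the mitochondrial citrate carrier, by 0.34. Acacb, the carboxylase at the mitochondrion, fell by 0.50. Loxapine had 2 higher (22.2%, all genes 10.1%) and 1 lower (11.1%, all genes 11.8%), and pizotifen 4 higher (44.4%, all genes 8.86%) and 1 lower (11.1%, all genes 9.07%). DKI had 0 higher (0%, all genes 20.4%) and 4 lower (44.4%, all genes 21.9%), with a median of -0.10, and of these Idh1, a source of NADPH, fell by 0.63 and Aacs by 0.40. 4-Deoxypyridoxine had 0 higher (0%, all genes 8.93%) and 3 lower (33.3%, all genes 11.2%), with Aacs at -0.56 and Idh1 at -0.30. Q7 had 2 higher (22.2%, all genes 29.2%) and 4 lower (44.4%, all genes 26.6%), with Aacs at 0.49 and Acacb at -0.49, and group A against group B 5 higher (55.6%, all genes 19.9%) and 1 lower (11.1%, all genes 21.4%), with Aacs at 0.67.

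Of 14 regulators, cyproheptadine had 3 higher (21.4%, all genes 17.5%) and 3 lower (21.4%, all genes 18.2%), with a median of -0.025, so the list's shares were near those of all genes. Insig1, which holds the sterol regulatory element-binding proteins in the endoplasmic reticulum, rose by 0.87, 0.67 and 0.71 with the group A compounds, and Mid1ip1, which promotes the activity of acetyl-CoA carboxylase, by 0.41, 0.28 and 0.37. Loxapine had 3 higher (21.4%, all genes 10.1%) and 2 lower (14.3%, all genes 11.8%), and pizotifen 3 higher (21.4%, all genes 8.86%) and 2 lower (14.3%, all genes 9.07%). DKI had 4 higher (28.6%, all genes 20.4%) and 4 lower (28.6%, all genes 21.9%): Insig1 fell by 0.61 and Srebf2, which encodes the related factor for sterol genes, by 0.36, while Mid1ip1 rose by 0.64. 4-Deoxypyridoxine had 0 higher (0%, all genes 8.93%) and 5 lower (35.7%, all genes 11.2%), with Insig1 at -0.77 and Srebf2 at -0.44. Q7 had 5 higher (35.7%, all genes 29.2%) and 3 lower (21.4%, all genes 26.6%), with Mid1ip1 at 0.62 and Scap, which escorts these factors to the Golgi, at 0.57.

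Of 23 genes of the sterol synthesis list, cyproheptadine had 23 higher (100%, all genes 17.5%) and 0 lower (0%, all genes 18.2%), loxapine 23 higher (100%, all genes 10.1%) and 0 lower (0%, all genes 11.8%) and pizotifen 23 higher (100%, all genes 8.86%) and 0 lower (0%, all genes 9.07%), with medians of 0.53, 0.52 and 0.51. Mvd rose by 0.92, 0.86 and 0.81 in that order. DKI had 0 higher (0%, all genes 20.4%) and 20 lower (87%, all genes 21.9%) and 4-deoxypyridoxine 0 higher (0%, all genes 8.93%) and 20 lower (87%, all genes 11.2%), with medians of -0.65 and -0.51. Hsd17b7 fell by 0.98 with DKI and Lss by 0.75 with 4-deoxypyridoxine. Butyrate had 0 higher (0%, all genes 19.6%) and 8 lower (34.8%, all genes 17.8%), and meclizine 0 higher (0%, all genes 13.1%) and 2 lower (8.7%, all genes 13.6%). Q7 had 21 higher (91.3%, all genes 29.2%) and 0 lower (0%, all genes 26.6%), with a median of 0.49 and Tm7sf2 at 1.48. In the samples themselves, the sterol median minus the vehicle ran from 0.49 to 0.58 with cyproheptadine, where that of the 10 genes ran from 0.30 to 0.47, and from -0.72 to -0.55 with DKI, where that of the 10 genes ran from -0.54 to -0.32.

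Of 13 genes of fatty acid oxidation, cyproheptadine had 0 higher (0%, all genes 17.5%) and 7 lower (53.8%, all genes 18.2%), loxapine 0 higher (0%, all genes 10.1%) and 7 lower (53.8%, all genes 11.8%) and pizotifen 0 higher (0%, all genes 8.86%) and 6 lower (46.2%, all genes 9.07%). Meclizine had 0 higher (0%, all genes 13.1%) and 6 lower (46.2%, all genes 13.6%) and DKI 0 higher (0%, all genes 20.4%) and 9 lower (69.2%, all genes 21.9%). Cpt1a, which brings fatty acids into mitochondria and is held back by malonyl-CoA, fell by 0.49 with cyproheptadine, 0.42 with loxapine, 0.31 with pizotifen, 0.40 with meclizine and 0.88 with DKI. Acadvl fell by 0.40 with cyproheptadine, Hadha by 0.34 with pizotifen and Acadm by 0.58 with DKI. The medians were -0.21 for cyproheptadine and -0.21 for DKI. Butyrate had 3 higher (23.1%, all genes 19.6%) and 2 lower (15.4%, all genes 17.8%), 4-deoxypyridoxine 1 higher (7.69%, all genes 8.93%) and 2 lower (15.4%, all genes 11.2%), with Decr1 at 0.24 and Cpt1a at -0.21, and Q7 4 higher (30.8%, all genes 29.2%) and 5 lower (38.5%, all genes 26.6%), with Acadm at -0.71 and Decr1 at -0.80.

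Of 11 genes of acyl-CoA synthesis and uptake, cyproheptadine had 5 higher (45.5%, all genes 17.5%) and 1 lower (9.09%, all genes 18.2%), loxapine 4 higher (36.4%, all genes 10.1%) and 2 lower (18.2%, all genes 11.8%) and pizotifen 3 higher (27.3%, all genes 8.86%) and 0 lower (0%, all genes 9.07%). DKI had 2 higher (18.2%, all genes 20.4%) and 4 lower (36.4%, all genes 21.9%), 4-deoxypyridoxine 0 higher (0%, all genes 8.93%) and 3 lower (27.3%, all genes 11.2%) and Q7 5 higher (45.5%, all genes 29.2%) and 4 lower (36.4%, all genes 26.6%). The medians were 0.15 for cyproheptadine and -0.035 for DKI. Acsl3, an acyl-CoA synthetase, rose by 0.48, 0.43 and 0.54 with group A and fell by 0.71 with DKI and 0.27 with 4-deoxypyridoxine.

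Of 15 genes of glycerolipid synthesis, cyproheptadine had 6 higher (40%, all genes 17.5%) and 0 lower (0%, all genes 18.2%), loxapine 5 higher (33.3%, all genes 10.1%) and 2 lower (13.3%, all genes 11.8%) and pizotifen 3 higher (20%, all genes 8.86%) and 1 lower (6.67%, all genes 9.07%). DKI had 5 higher (33.3%, all genes 20.4%) and 3 lower (20%, all genes 21.9%), 4-deoxypyridoxine 1 higher (6.67%, all genes 8.93%) and 3 lower (20%, all genes 11.2%), butyrate 6 higher (40%, all genes 19.6%) and 3 lower (20%, all genes 17.8%) and Q7 7 higher (46.7%, all genes 29.2%) and 2 lower (13.3%, all genes 26.6%). The medians were 0.084 for cyproheptadine and 0.02 for DKI. Chka, a choline kinase, rose by 0.62 with cyproheptadine, 0.57 with meclizine and 0.99 with DKI. Dgat2, which makes triglycerides, rose by 0.87 with butyrate, 0.61 with meclizine and 0.68 with DKI, while Lpin1 rose by 0.47, 0.29 and 0.27 with group A and fell by 0.60 with butyrate, 0.60 with DKI and 0.44 with 4-deoxypyridoxine. Of 6 genes of mitochondrial fatty acid synthesis, cyproheptadine had 2 higher (33.3%, all genes 17.5%) and 1 lower (16.7%, all genes 18.2%), loxapine 0 higher (0%, all genes 10.1%) and 1 lower (16.7%, all genes 11.8%), pizotifen 0 higher (0%, all genes 8.86%) and 1 lower (16.7%, all genes 9.07%), meclizine 3 higher (50%, all genes 13.1%) and 0 lower (0%, all genes 13.6%), DKI 3 higher (50%, all genes 20.4%) and 0 lower (0%, all genes 21.9%) and Q7 1 higher (16.7%, all genes 29.2%) and 1 lower (16.7%, all genes 26.6%). The medians were 0.13 for cyproheptadine and 0.15 for DKI, and Mecr rose by 0.37 with DKI.

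Likeness of pattern was described by Pearson's r over the 16 condition means, all from the same 48 libraries, among 9927 genes whose mean was 6 or more. Among the 3 genes most like each member were Nsdhl (0.96) and Insig1 (0.96) for Elovl6, Tbl2 (0.96) and Lss (0.95) for Fasn, Acsl3 (0.97) and Nsdhl (0.96) for Scd2, and Stard4 (0.98) for Acly. Scd1 was most like Lpcat3 (0.96), Dhcr7 and Nsdhl, and Acss2 most like Acsl3 (0.95), Slc25a1 and Dhcr7. Srebf1 was most like Tk1 (0.95), Incenp and Cyb5r3, Acaca like Ankhd1 (0.96), Dnajc13 and Fam178a, and Fads2 like Ncapg2 (0.96), Srebf2 and Ganab. For Fads1 the first was an entry shared by Eno1 and Eno1b (0.94), then Elovl5 and Sqle. The Q7 vehicle is 1 of the 16 conditions, and r over the 15 Q111 conditions is given second for pairs of the 10 genes. The values were 0.94 and 0.98 for Scd1 and Scd2, 0.93 and 0.92 for Acly and Scd2, 0.86 and 0.77 for Fads1 and Fads2, and 0.79 and 0.77 for Acaca and Fasn. Between Srebf1 and Fasn they were 0.094 and -0.024, and between Srebf1 and Acaca -0.31 and -0.46.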

How the data were processed

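The deposited table gives 1 value per gene and sample for 48 mouse samples, as log2 normalized abundance made by the authors, whose steps were trimming (Trimmomatic 0.36), alignment to transcripts of GRCm38.p5, and RSEM, with DESeq2 among the tools named. The transformation is not named, the log base was inferred, and the depth per sample is unknown. The values behave like a regularized logarithm, which can shrink differences. The differences and folds given here may therefore be smaller than those of the counts. The values were used as deposited, with no pseudocount. Genes with a symbol and a mean of at least 1 were fitted with limma 3.58.1 in R 4.3.3, with a term per condition and collection day and a variance trend (30 residual degrees of freedom). Tests were two-sided, p-values were adjusted by Benjamini-Hochberg over 13409 genes within each comparison, and called means an adjusted p under 0.05. Python 3.11.15 with matplotlib 3.10.9 made the plots and searched the promoters. The fit was tested on simulated data, and no value given here comes from that test.

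All 10 members were named. Of each list (regulators, precursors and NADPH, elongation and desaturation, acyl-CoA and uptake, glycerolipid, oxidation, mitochondrial synthesis, sterol synthesis), the genes named were taken from up to 2 with the largest rise and up to 2 with the largest fall among those called in the comparison described. For a gene so named in 1 comparison, called values in some of the other comparisons are given beside it. Likeness took the 3 genes with the highest r, and some genes that these rules name are not reported. The members and lists were chosen with earlier results of these data known. Of the listed genes, Thrsp, Acss1, Elovl2, Elovl3, Scd3, Scd4 and Cd36 were below the minimum, and Ppard and Hsd17b8 were not analysed here. Alternatives changed the minimum, the batch term, the samples in the fit, the scaling, the variance model and the reference, and left out each replicate in turn.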

Additional observations from a re-analysis of the deposited data

How the results depend on the processing

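Over the 15 comparisons with the Q111 vehicle, 55 of 150 differences were called, and under the planned settings with all samples 53 to 59. Over the 4 direct comparisons 22 of 40 were called, and under those settings 15 to 24. With the replicate block in place of the collection day the totals were 55 and 22, and all 190 calls and directions were the same. With only the compared samples in the fit, which leaves fewer samples to estimate the spread, 173 of 190 were the same, 10 calls were lost, 7 were gained and 3 differences not called in either fit changed sign. In that fit the count was 1 for trichostatin A, 2 for cysteamine, 4 for nicotinamide, 2 for fingolimod phosphate, 5 for cyproheptadine against meclizine and 1 for DKI against meclizine. Cysteamine had 0 calls with no minimum mean and 0 with collection time as a further term, and cyproheptadine against loxapine had 1 with no collection day term. The scaling alternative subtracted a value between -0.013 and 0.0027 from each sample, and it changed the sign of 1 difference that was not called. With the slot-matched reference (compounds labelled nanomolar, the nicotinamide dose being in doubt), chosen after seeing the data, counts were 0 for trichostatin A, 4 for 4-deoxypyridoxine and 0 for cysteamine. Of 70 differences under it, 57 were the same, 6 calls were lost, 4 gained and 3, called with either reference, changed sign: Acaca was at 0.22 with loxapine and 0.11 with cysteamine, and Fasn at 0.0060 with butyrate. A further 11 that neither reference called also changed sign and are counted as the same. The cause of these changes was not tested.

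Leaving out 1 sample at a time, of 1350 differences 1291 were the same, 46 calls were lost and 13 gained. The sign changed in 73, all of them differences not called with or without the sample, and in 0 called ones. The lowest and highest counts were 6 and 6 for cyproheptadine, 6 and 7 for loxapine, 5 and 7 for pizotifen, 1 and 5 for meclizine, 7 and 8 for DKI, 3 and 4 for butyrate, 1 and 2 for trichostatin A and 6 and 8 for 4-deoxypyridoxine. They were 0 and 1 for cysteamine, 0 and 3 for selisistat, 1 and 2 for nicotinamide, 0 and 2 for nortriptyline, 0 and 1 for fingolimod phosphate, 0 and 0 for haloperidol and 7 and 8 for Q7. For the direct comparisons they were 9 and 9 for group A against group B, 0 and 1 for cyproheptadine against loxapine, 7 and 8 for cyproheptadine against meclizine and 3 and 6 for DKI against meclizine. The unknown depth sets no limit that can be given.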
